A study of Rattus norvegicus with 15 samples.

Results

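Expression of 9 genes of the complement system was followed across mammary tumours of rats: C1qa, C1qb, C1r and C1s, which encode the chains and proteases of the first component, C2, C3, the complement factors B (Cfb) and D (Cfd), and Serping1, the inhibitor of the first component. They were chosen by name, through the accession of each array probe, together with the observation that C3 spanned a wide range between tumours. That range chose the set, so it is described below and no p-value is drawn from it. The 9 genes had 12 probes among 41012 on the array, and are 9 of 8381 named genes with a tested probe. The probe with the highest mean level stood for each gene, and all 9 of these were well above background on 15 of 15 arrays.

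The tumours came from 3 groups of female Sprague-Dawley rats, with 5 arrays each: zinc-deficient (ZnD, 3 mg of zinc per kg chow), zinc-adequate (ZnA, 35 mg/kg) and zinc-supplemented (ZnS, 180 mg/kg). Mothers ate the chow from gestation day 10, and the daughters stayed on it until day 51. All 3 groups then received a single gavage of 50 mg/kg of the carcinogen 7,12-dimethylbenz[a]anthracene (DMBA), ate adequate chow, and had their tumours taken at 180 days, so the ZnA tumours are carcinogen-induced as well. The labels describe the tumours as tubular or papillary and do not name the animal or litter behind each one, so the p-values cover only the variation among these samples.

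Complement is a cascade of plasma proteins that marks cells and debris for removal. In the classical pathway C1q binds a surface and activates the proteases C1r and C1s in turn. C1s then cleaves C4 and C2, whose fragments form an enzyme that splits C3. In the alternative pathway factor D cleaves factor B bound to a C3 fragment, which forms a second enzyme that splits C3, and the C1 inhibitor blocks C1r and C1s. In tissues C1q is made largely by macrophages and factor D, also called adipsin, by fat cells, while C3 is made by the liver and by many inflamed cells.

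The arrays filled 4 slides that each carried every diet, and between 13854 and 24009 of 43379 spots per array were well above background. A level is the log2 signal of a probe after subtraction of its array's 75th percentile, and the level of one gene cannot be set against that of another. Of 10 luminal epithelial markers, 7 were well above background on all 15 arrays, among them Krt8, Krt18 and Epcam. Because RNA came from whole tumour, fewer cells of a type and less RNA per cell cannot be told apart.

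C3 and the C1q chain genes are shown first by their upstream sequence, since these genes moved together between tumours. RefSeq sequence of assembly GRCr8 was at hand for 5 of the 9 genes (C3, C1qa, C1qb, C1r and Cfd). The 250 bases before the annotated start lie at chr9:2201340-2201589 for C3, chr5:154419934-154420183 for C1qa and chr5:154407828-154408077 for C1qb, all on the minus strand, and are printed 5′ to 3′ in the direction of transcription. Capitals mark every match, on either strand, to the NF-kappaB motif (GGG and CC with any 5 bases between them) or to the STAT motif TTCNNNGAA.
C3: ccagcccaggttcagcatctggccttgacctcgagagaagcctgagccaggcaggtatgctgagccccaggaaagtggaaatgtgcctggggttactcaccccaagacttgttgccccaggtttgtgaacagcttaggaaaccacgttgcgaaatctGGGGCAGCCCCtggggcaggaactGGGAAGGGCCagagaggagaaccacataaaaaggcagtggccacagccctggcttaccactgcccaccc
C1qa: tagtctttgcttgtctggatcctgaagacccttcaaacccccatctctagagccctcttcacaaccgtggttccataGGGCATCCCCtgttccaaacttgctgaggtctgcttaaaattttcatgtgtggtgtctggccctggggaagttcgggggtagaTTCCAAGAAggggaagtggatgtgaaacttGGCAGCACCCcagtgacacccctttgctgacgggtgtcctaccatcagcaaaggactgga
C1qb: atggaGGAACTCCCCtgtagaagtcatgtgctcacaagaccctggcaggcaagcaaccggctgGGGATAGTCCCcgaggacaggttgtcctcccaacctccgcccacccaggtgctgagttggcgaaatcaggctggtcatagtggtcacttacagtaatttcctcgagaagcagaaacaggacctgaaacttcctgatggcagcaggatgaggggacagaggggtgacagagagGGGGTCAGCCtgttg
The only STAT match in these 3 sequences is TTCCAAGAA, 90 to 82 bases before the start of C1qa, and the motif occurs in 7.67% of 33469 upstream sequences of this length. The NF-kappaB motif occurs in 42.3% of them, in all 3 printed sequences and also in that of C1r, and overlapping matches merge into one run of capitals. The interferon response motif (GAAA and GAAA with any 2 bases between them, in 3.41% of upstream sequences) had no match in any of the 5 genes, and Cfd had no match to any of the 3 motifs. A match describes letters and is not evidence of binding.

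C3, the protein on which all complement pathways converge, varied widely between tumours of the same diet. Its level was 1.01, 0.92, 6.40, 1.61 and -0.03 in the deficient tumours, 0.49, 2.25, 1.09, 2.31 and 4.44 in the adequate tumours, and 1.52, 4.11, 0.30, 1.96 and 3.86 in the supplemented tumours. Each diet held tumours with high and with low C3, and the diets overlapped. The range of 6.43 log2 units, 86.2-fold, ran between 2 deficient tumours, replicate 3 at the top and replicate 5 at the bottom. Of 11447 probes well above background on all arrays, 3 had a wider range. Differences between diet means made up 0.768% of the variance of C3. For the other genes the shares ran from 1.87% for C1qa to 15.6% for C1r. With 5 tumours in each of 3 diets, most of the variance falls within diets even where diet has no effect. The shares are therefore descriptions and not evidence on the size of a diet effect.

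**Figure D1:**
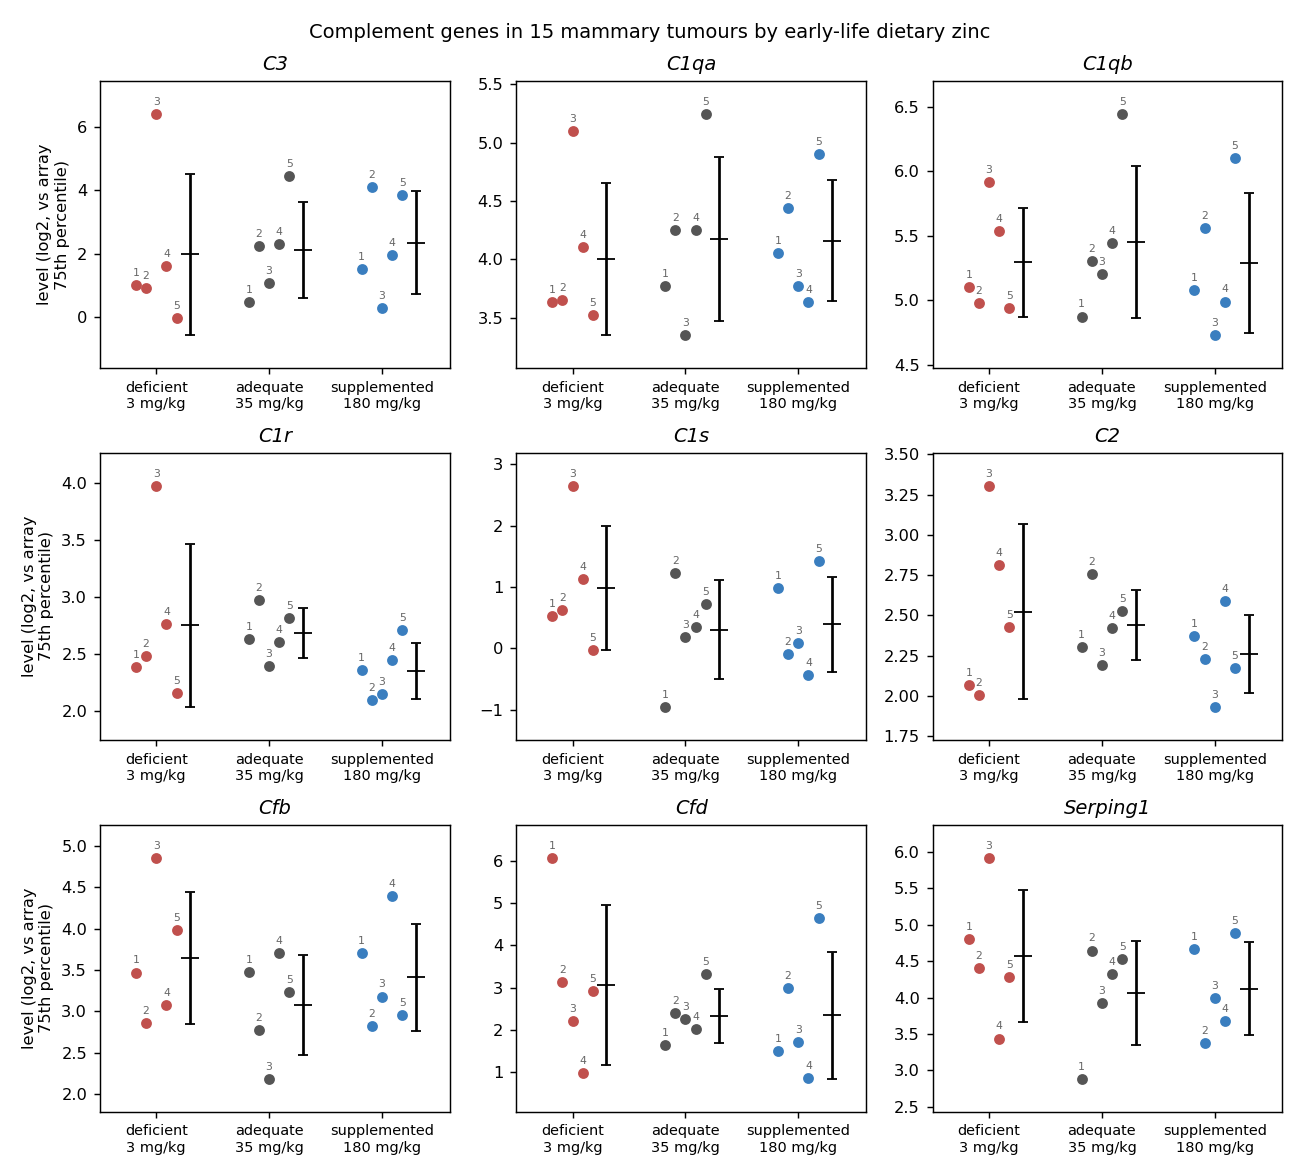
Level of each complement gene (log2 signal minus the array's 75th percentile, vertical axis) in 15 tumours by early-life diet, with replicate numbers beside the points and bars for mean ± SD (n = 5 per diet). The diets overlap for all 9 genes, and deficient replicate 3 is the highest tumour for C3, C1r, C1s, C2, Cfb and Serping1.

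The C1q chain genes followed a narrower course. C1qa, which encodes the A chain, had levels of 3.63, 3.66, 5.10, 4.11 and 3.52 in deficient tumours, 3.77, 4.25, 3.35, 4.25 and 5.24 in adequate tumours, and 4.05, 4.44, 3.77, 3.64 and 4.90 in supplemented tumours. One tumour of each diet stood clearly above the rest: deficient replicate 3, adequate replicate 5 and supplemented replicate 5. C1qb, the B chain, had levels of 5.10, 4.98, 5.92, 5.54 and 4.94 in deficient tumours, 4.88, 5.30, 5.20, 5.44 and 6.44 in adequate tumours, and 5.08, 5.56, 4.73, 4.99 and 6.10 in supplemented tumours. The same 3 tumours were its highest, and the diets overlapped. The ranges were 1.89 log2 units for C1qa and 1.71 for C1qb.

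The proteases C1r and C1s, which are activated in turn by C1q, were both highest in deficient replicate 3. C1r had levels of 2.39, 2.48, 3.97, 2.76 and 2.16 in deficient tumours, 2.63, 2.97, 2.40, 2.61 and 2.81 in adequate tumours, and 2.36, 2.10, 2.15, 2.45 and 2.71 in supplemented tumours. Apart from deficient replicate 3, all tumours lay within 2.10 to 2.97. C1s ranged more widely, with levels of 0.53, 0.63, 2.65, 1.13 and -0.02 in deficient tumours, -0.95, 1.22, 0.18, 0.35 and 0.72 in adequate tumours, and 0.98, -0.09, 0.09, -0.43 and 1.42 in supplemented tumours. Its range was 3.60 log2 units, with adequate replicate 1 at the bottom.

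C2, the substrate of C1s that becomes part of the C3-splitting enzyme, varied least of the 9 genes, over 1.37 log2 units. Its levels were 2.06, 2.00, 3.30, 2.81 and 2.43 in deficient tumours, 2.30, 2.75, 2.19, 2.42 and 2.53 in adequate tumours, and 2.37, 2.23, 1.93, 2.59 and 2.17 in supplemented tumours. Deficient replicate 3 was again the highest. Serping1, whose product blocks C1r and C1s, had levels of 4.81, 4.40, 5.92, 3.44 and 4.29 in deficient tumours, 2.89, 4.64, 3.93, 4.32 and 4.53 in adequate tumours, and 4.67, 3.38, 3.99, 3.68 and 4.88 in supplemented tumours. It was highest in deficient replicate 3 and lowest in adequate replicate 1, the same tumours as for C1s.

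The alternative pathway genes did not share one pattern. Cfb, which encodes factor B, had levels of 3.47, 2.86, 4.86, 3.08 and 3.98 in deficient tumours, 3.48, 2.77, 2.19, 3.70 and 3.24 in adequate tumours, and 3.71, 2.82, 3.18, 4.39 and 2.95 in supplemented tumours. Deficient replicate 3 and supplemented replicate 4 were its highest tumours. Cfd, which encodes factor D, had levels of 6.08, 3.13, 2.22, 0.97 and 2.91 in deficient tumours, 1.65, 2.39, 2.25, 2.01 and 3.33 in adequate tumours, and 1.50, 2.98, 1.72, 0.86 and 4.66 in supplemented tumours. Cfd was highest in deficient replicate 1, where C3 was low, and its range of 5.22 log2 units (37.2-fold) was exceeded by 14 of 11447 probes. Deficient replicate 3, the highest tumour for 6 of the 9 genes and among the top 3 for 8, ranked 9 of 15 for Cfd. Of the marker lists described below, it was also highest for macrophages (0.87), interferon response (0.87) and acute phase response (0.92). It was not highest for the T cell, fibroblast, luminal, basal, milk or erythrocyte list. The share of all probes that were highest in this tumour was not counted.

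**Figure D2:**
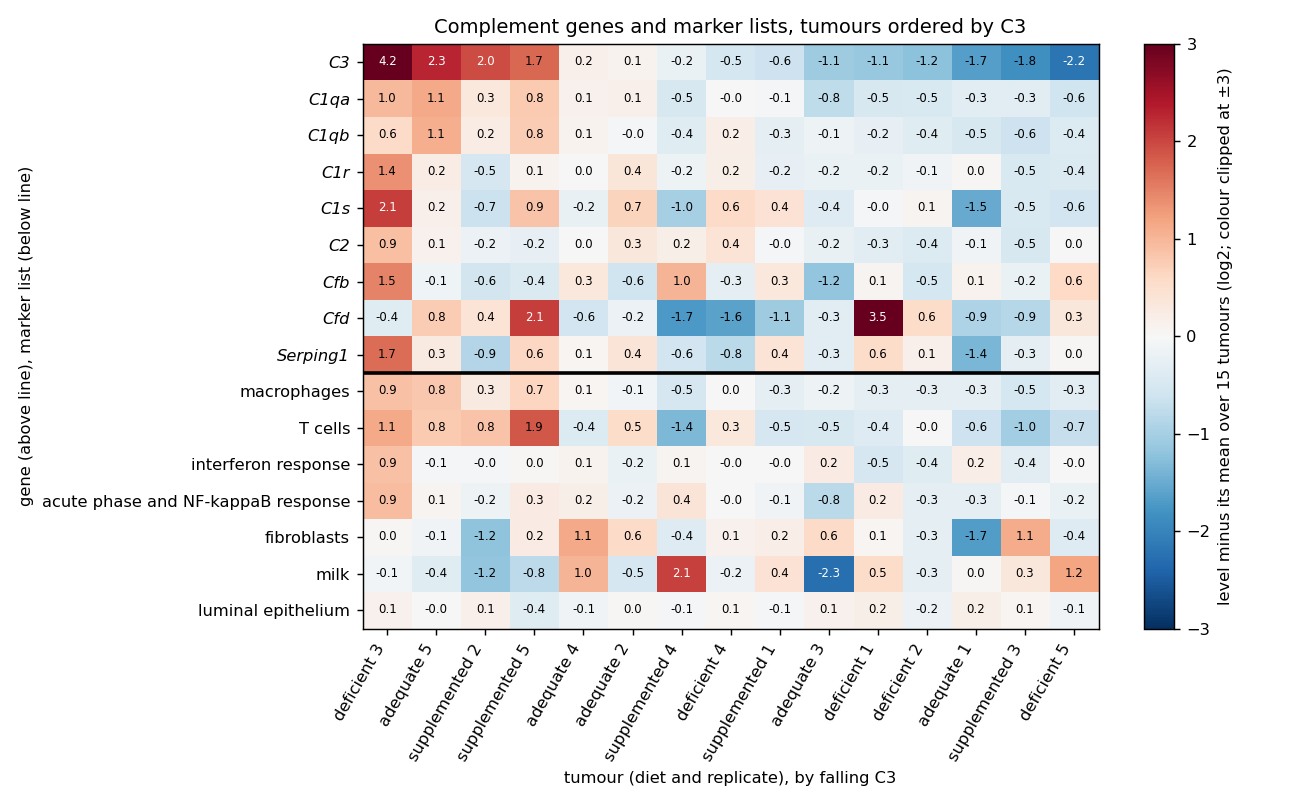
Level of each complement gene and mean level of each marker list minus its own mean over 15 tumours (log2, colour clipped at ±3), with tumours in columns from the highest to the lowest C3. C1qa, C1qb and the macrophage list are highest on the left with C3, while Cfd peaks in deficient replicate 1 and Cfb and the milk list share high values in supplemented replicate 4.

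Tumours of deficient and adequate diets were compared to ask what early zinc deficiency leaves in complement expression. Of the 9 genes, 6 were higher and 3 lower in deficient tumours, with a median log2 difference of 0.08, against -0.0046 over all 21014 tested probes, 49.3% of which were higher. Limma called 0 of the 9 genes, and 0% of all probes, at an adjusted p of 0.05. At an unadjusted p under 0.05 the counts were 0 of 9 genes and 3.91% of probes. The diets overlapped for all 9 genes, and 0.39% of probes did not overlap.

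The differences with the largest size were those of Cfd, C1s, Cfb and Serping1. Cfd averaged 3.06 ± 1.89 in deficient and 2.33 ± 0.63 in adequate tumours (SD, n = 5 each). Their log2 difference was 0.74 (95% interval -0.96 to 2.43). It was -0.02 without deficient replicate 1. C1s averaged 0.98 ± 1.02 in deficient and 0.31 ± 0.81 in adequate tumours, a difference of 0.68 (interval -0.37 to 1.72). Cfb differed by 0.57 (interval -0.26 to 1.41) and Serping1 by 0.51 (interval -0.41 to 1.42), with adjusted p of 0.987 in limma for these 4 genes. Without deficient replicate 3 the differences were 0.26 for C1s, 0.27 for Cfb and 0.17 for Serping1. Leaving out 1 adequate tumour also lowered them, to 0.36 for C1s and 0.21 for Serping1 without replicate 1 and to 0.35 for Cfb without replicate 3. Without deficient replicate 4, Serping1 differed by 0.79 and Cfd by 1.26. C3 averaged 1.98 ± 2.54 in deficient and 2.12 ± 1.51 in adequate tumours, a difference of -0.14 (interval -2.42 to 2.14). Within the 4 slides that C3 difference ran from -3.41 to 2.91, and it was -0.17 with slide as a fixed block. The intervals of C2 (-0.41 to 0.57) and C1r (-0.51 to 0.65) were narrower, around differences of 0.08 and 0.07.

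Tumours of supplemented and adequate diets were compared to ask the same of extra zinc. Here 5 genes were higher and 4 lower in supplemented tumours, with a median of 0.02, against -0.0067 over all probes, 48.8% of which were higher. Limma called 0 of 9 genes and 0% of probes (lowest adjusted p of a member 1.000), with 0 genes and 1.97% of probes at an unadjusted p under 0.05. Groups did not overlap for 0 of 9 genes and 0.357% of probes. Cfb averaged 3.41 ± 0.64 in supplemented and 3.08 ± 0.61 in adequate tumours, a difference of 0.33 (interval -0.50 to 1.17) that was 0.088 without supplemented replicate 4 and 0.11 without adequate replicate 3. C1r averaged 2.35 ± 0.25 in supplemented and 2.69 ± 0.22 in adequate tumours, a difference of -0.33 (interval -0.91 to 0.25). C3 averaged 2.35 ± 1.61 in supplemented and 2.12 ± 1.51 in adequate tumours, a difference of 0.23 (interval -2.05 to 2.51) that ran from -0.045 to 1.03 within the slides. With normexp background correction in place of the scanner's, 4 of these differences turned round: C3 to -0.17, Cfb to -0.38, Cfd to -0.23 and Serping1 to -0.56.

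The diets with the most and the least zinc were compared last. Of the 9 genes, 2 (C3 and C1qa) were higher and 7 lower in supplemented tumours, with a median of -0.26, against -0.0010 over all probes, 49.9% of which were higher. Limma called 0 of 9 genes and 0% of probes (lowest adjusted p of a member 0.766), with 0 genes and 7.05% of probes at an unadjusted p under 0.05. Groups did not overlap for 0 of 9 genes and 1.5% of probes. Cfd differed by -0.72 (interval -2.41 to 0.98), C1s by -0.59 (interval -1.64 to 0.45) and C1r by -0.40 (interval -0.98 to 0.18). Without deficient replicate 3 these were -0.18 for C1s and -0.095 for C1r, and without deficient replicate 1 the difference of Cfd was 0.038. Without supplemented replicate 4, C1s differed by -0.38 and Cfd by -0.35, while Cfd differed by -1.24 without deficient replicate 4 and by -1.30 without supplemented replicate 5. The level of the erythrocyte list (2 of 6 genes on all arrays, Hbb and Hbb-b1) ran from -1.56 to -0.48 in supplemented tumours and from 0.50 to 2.79 in deficient tumours, which did not overlap, and from -2.03 to 1.13 in adequate tumours. Its part in these differences was not tested. C3 differed by 0.37, with an interval from -1.91 to 2.65. An F test over the 3 diets called 0 of 9 genes and 0% of probes (lowest adjusted p over all probes 0.990 in limma), with 4.03% of probes at an unadjusted p under 0.05. The comparisons share arrays and are not independent of each other.

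**Figure D3:**
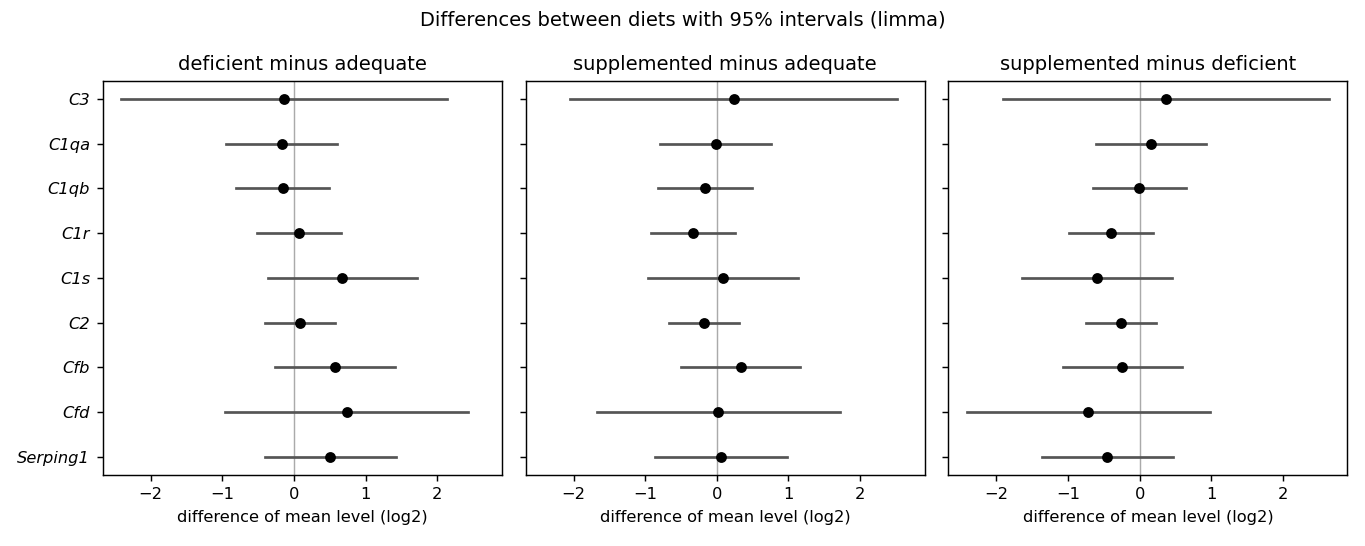
Difference of mean log2 level between diets for each complement gene (points) with 95% intervals from limma (lines), in 3 panels for the 3 comparisons. Each interval includes 0, and those of C3 and Cfd are the widest.

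Second probes gave the same sign as the first for C1qa and C1s in all 3 comparisons. Those of Serping1 disagreed between supplemented and adequate tumours, with differences of 0.06 and -0.14. Across tumours the 2 probes of a gene correlated at 0.930 for C1qa, 0.850 for C1s and 0.775 for Serping1, the second probes of C1s and Serping1 being well above background on 12 arrays each.

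How the complement genes moved together was measured over the 15 tumours, as a description of these tumours, with two-sided permutation tests (100000 resamples) adjusted over 36 pairs of genes. The C3 levels whose range chose the set enter each p-value with C3, here and for the marker lists. Those p-values are given as descriptions and not as independent support. Among the other 8 genes, the C1q chains had the highest r with C3. Its Pearson r was 0.896 with C1qa (Spearman rho 0.829, permutation p = 2e-05, adjusted 0.00036) and 0.844 with C1qb (rho 0.907, adjusted permutation p = 0.00234). Without the 2 tumours farthest from the median C3, deficient replicate 3 and adequate replicate 5, these were 0.837 and 0.843. With slide means subtracted they were 0.934 and 0.874, and with diet means subtracted 0.899 and 0.861. C3 also left a gap of 1.55 log2 units between 11 tumours up to 2.31 and 4 tumours from 3.86. A wider gap lay above it, from 4.44 in adequate replicate 5 to 6.40 in deficient replicate 3. The lower gap was used for the split, with gaps among the highest tumours left aside. Within the 11 lower tumours the correlations were 0.660 with C1qa and 0.726 with C1qb, and the 4 higher ones are too few for a value of their own.

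The correlations of C3 with the proteases depended on which tumours were left out. C3 and C1r had r = 0.691 (adjusted permutation p = 0.0351), which was 0.221 without deficient replicate 3 and adequate replicate 5, and C3 and C1s had r = 0.641 (adjusted permutation p = 0.0392), which was 0.352. Their rank correlations were 0.529 and 0.496, with adjusted permutation p of 0.148 and 0.188. Within the 11 tumours of lower C3 the Pearson values were 0.685 for C1r and 0.453 for C1s. C3 and C2 had r = 0.582 (adjusted permutation p = 0.0694) and C3 and Serping1 r = 0.513 (0.112), and these were 0.161 and 0.0987 without the same tumours, but 0.596 and 0.205 within the 11 tumours of lower C3. C3 had r = 0.266 with Cfb (adjusted permutation p = 0.433) and 0.125 with Cfd (0.698), and without the 2 farthest tumours the value for Cfb was -0.23.

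Among the other genes, C1qa and C1qb had r = 0.907 (adjusted permutation p = 0.00036), and C1s and its inhibitor gene Serping1 had r = 0.826 (adjusted permutation p = 0.00234). C1s and Serping1 stood at 0.549 without deficient replicate 3 and adequate replicate 1, the tumours at both ends. C1qa and C1qb stood at 0.831 without adequate replicate 5 and deficient replicate 3, and at 0.574 within the 11 tumours of lower C3. Their rank correlations were 0.764 for C1qa with C1qb and 0.771 for C1s with Serping1 (adjusted permutation p = 0.0119 each). C1r and C2 had r = 0.810 (adjusted permutation p = 0.00634), which was 0.463 without its 2 farthest tumours and 0.584 without deficient replicate 3 alone. C1r and C1s, whose products work as a pair, had r = 0.757 (adjusted permutation p = 0.0158). Their r was 0.718 without deficient replicate 3 and adequate replicate 1, and 0.490 without deficient replicate 3 alone. By rank these were 0.600 for C1r with C2 and 0.639 for C1r with C1s, which did not pass (adjusted permutation p = 0.104 and 0.0842). With slide means subtracted the r of these 4 pairs ran from 0.750 to 0.915. Of the 8 pairs with Cfd, none passed (lowest adjusted permutation p 0.197).

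**Figure D4:**
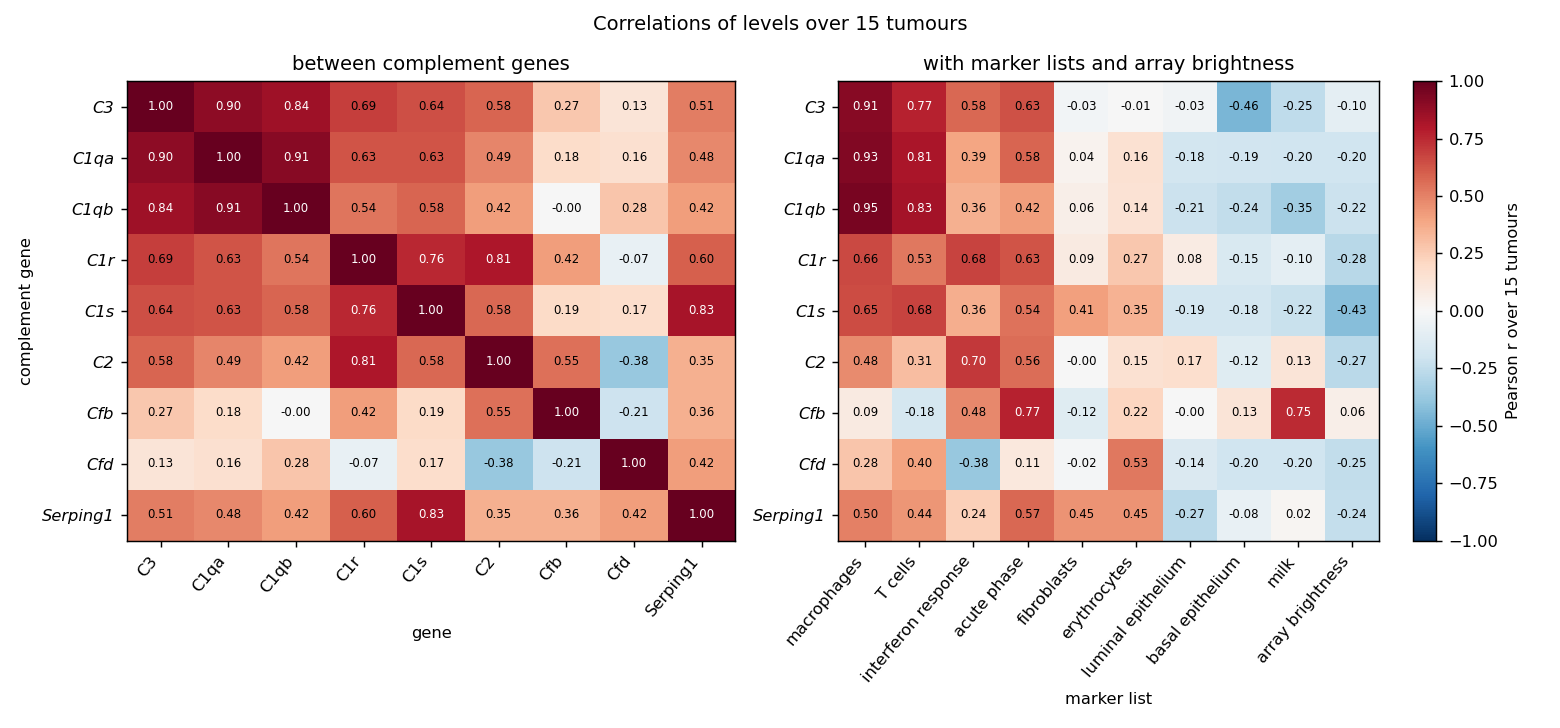
Pearson r over 15 tumours between complement genes (left) and between each complement gene and the mean level of marker lists or array brightness (right), on a colour scale from -1 to 1. C3, C1qa and C1qb form the block with the highest values and track the macrophage list, and Cfb stands with the milk and acute phase lists.

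Marker lists of cell types and responses were set beside the genes, 90 pairs in all including array brightness. The macrophage list had 8 of 13 genes well above background on all arrays (Cd68, Mrc1, Aif1, Cd14, Lyz2, Fcgr1a, Laptm5 and Tyrobp), 12 were tested, and Cd163 was not. Its mean level, centred on each gene's mean, ran from -0.33 to 0.87 in deficient tumours, -0.27 to 0.80 in adequate tumours and -0.52 to 0.65 in supplemented tumours. It correlated at 0.953 with C1qb, 0.929 with C1qa (adjusted permutation p = 0.00045 each) and 0.907 with C3 (adjusted permutation p = 0.0012), and by rank at 0.921, 0.821 and 0.857. With slide means subtracted the r was 0.941, 0.929 and 0.927. Without the 2 farthest tumours the values were 0.935, 0.850 and 0.818, and within the 11 tumours of lower C3 that of C3 was 0.537. The mean level over all 12 tested genes had r = 0.861 with C3 and 0.935 with C1qa. By single gene, Lyz2 (lysozyme), Tyrobp and Cd68 had r of 0.870, 0.845 and 0.775 with C3, while the endotoxin receptor gene Cd14 had 0.091. All 12 had positive r with C3, and 11 did with C1qa and with C1qb, where the lowest were -0.14 and -0.22. The part of macrophage content in the C3 values was not tested.

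The T cell list rested on 2 of 10 genes, Cd3d and Cd3g, and correlated at 0.830 with C1qb, 0.814 with C1qa and 0.766 with C3 (adjusted permutation p = 0.00378, 0.00315 and 0.0121), with rho of 0.861, 0.761 and 0.746. The interferon list (9 of 16 genes on all arrays) had r = 0.704 with C2 and 0.677 with C1r (adjusted permutation p = 0.0535 and 0.129). Deficient replicate 3 had the highest interferon level, 0.87, and without this tumour the values were 0.380 for C2 and 0.133 for C1r. The interferon genes were not particular to C2 and C1r. By single gene, 12 of 13 had positive r with each of C2, C1r and C3, with medians of 0.585, 0.553 and 0.481. With Cfd 3 of 13 did, with a median of -0.29. The fibroblast list (6 of 10 genes) had r = 0.411 with C1s and 0.450 with Serping1, and its member Dcn, the matrix proteoglycan decorin, had 0.856 with C1s and 0.781 with Serping1. The single values of the 8 tested genes were wide apart, with a median of 0.205 and a lowest of -0.43 for C1s, and a median of 0.323 and a lowest of -0.38 for Serping1, the lowest being Fbln1 (fibulin) in both. Array brightness, the 75th percentile, had r from -0.43 (C1s) to 0.06 (Cfb). Neutrophil markers were well above background on all arrays for 1 of 11 genes, and B and plasma cell markers for 0 of 8.

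Cfb stood apart by its partners. It correlated at 0.772 with the list of acute phase and NF-kappaB response genes (9 of 17 on all arrays, adjusted permutation p = 0.0125), a value of 0.515 without deficient replicate 3 and supplemented replicate 4. By rank it was 0.507 and did not pass (adjusted permutation p = 0.312). It correlated at 0.748 with the milk list (4 of 9 on all arrays: Csn1s1, Csn2, Csn3 and Lalba, adjusted permutation p = 0.0162), and this was 0.932 without the same tumours, 0.825 by rank (adjusted permutation p = 0.00378) and 0.764 with slide means subtracted. The milk level ran from -0.28 to 1.19 in deficient tumours, -2.26 to 1.01 in adequate tumours and -1.18 to 2.06 in supplemented tumours. All 9 tested milk genes had positive r with Cfb, from 0.229 for Glycam1 to 0.919 for the kappa casein gene Csn3. In the acute phase list 9 of 12 did, up to 0.891 for Lbp, the lipopolysaccharide binding protein gene, while the chemokine gene Ccl2 had -0.61. The part of secretory epithelium in the Cfb values was not tested.

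Cfd was set beside fat cell genes, most of which could not be read. Of 10 adipocyte markers 0 were well above background on all arrays. Adipoq, the adiponectin gene, was so on 6 arrays, and the resistin gene Retn on 11, so their low levels lie at background. Adipoq stood at 1.25 in deficient replicate 1 and 0.55 in supplemented replicate 5, the tumours with the highest Cfd, and between -3.53 and -1.47 in the other 13. The r with Cfd was 0.849 for Adipoq, 0.871 for Retn and -0.15 for Cidea. By rank these were 0.493, 0.629 and -0.27, and without the same 2 tumours the r was 0.418, 0.525 and -0.21, so the high values for Adipoq and Retn rest on those tumours. The erythrocyte list was also highest in deficient replicate 1, at 2.79, and had r = 0.531 with Cfd (adjusted permutation p = 0.180, 0.314 without the same 2 tumours). The part of fat tissue or blood in the Cfd values was not tested.

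**Figure D5:**
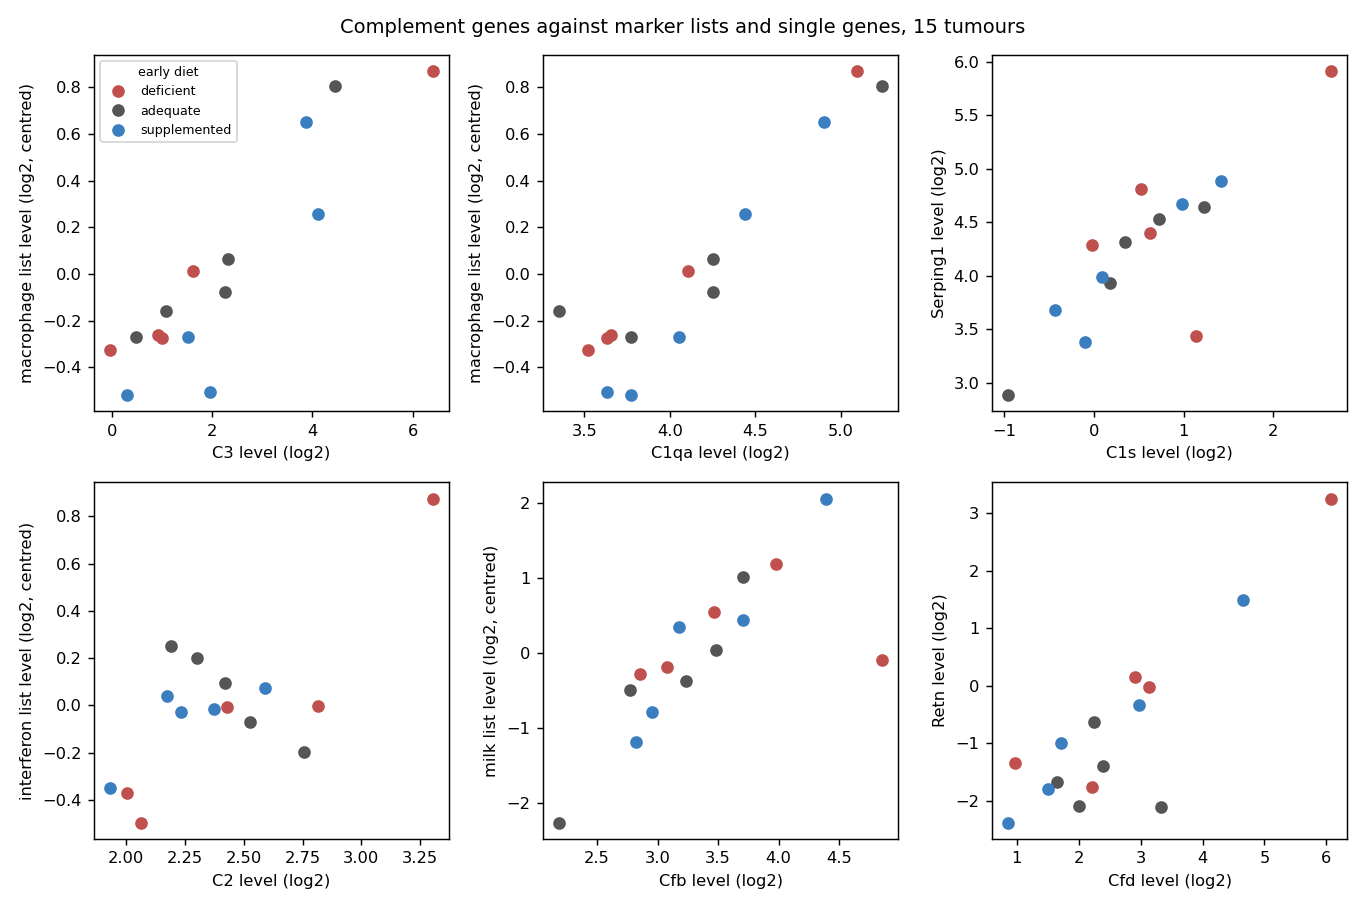
Levels in 15 tumours, coloured by early-life diet: the macrophage list against C3 and C1qa, Serping1 against C1s, the interferon list against C2, the milk list against Cfb and Retn against Cfd (log2, lists centred on their mean). Colours mix within each panel, deficient replicate 3 lies at the upper end of C3, C1s, C2 and Cfb, and Retn is well above background on 11 arrays. The r of the C2 and Cfd panels fell when the tumours at their upper ends were left out.

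The genes most like C3 over the 15 tumours, among 5336 named genes well above background on all arrays, were P2ry6 (r = 0.928), a nucleotide receptor, Ctss (0.917), the lysosomal protease cathepsin S, Tbxas1 (0.900), thromboxane synthase, C1qa (0.896), Slamf9 (0.880), Lyz2 (0.870), Myo1f (0.865) and Fcrl2 (0.861). Without the 2 tumours farthest in C3 these values ran from 0.712 to 0.848. For C1qa they were Tbxas1 (0.949), Myo1f (0.917), Ncf4 (0.909), a subunit of the phagocyte oxidase, Ptafr (0.908), the receptor of platelet-activating factor, and C1qb (0.907), with 0.831 to 0.887 without the 2 tumours farthest in C1qa. For C1s they were Or13l2 (0.860), Dcn (0.856), Serping1 (0.826), Fgl2 (0.819) and P2ry12 (0.809), which ran from 0.549 to 0.706 without the 2 tumours farthest in C1s. For Cfd they were Pf4 (0.799), Pip4k2a (0.778), Rps6kb1 (0.769), Ddx52 (0.741) and Fbxl12 (0.721), which ran from 0.375 for Pip4k2a to 0.759 for Pf4 without the 2 tumours farthest in Cfd. They share arrays and scaling, and the fat cell genes could not enter because they were not well above background on all arrays.

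Of 48 other complement genes, 39 were on the array under these names, 17 were tested and 9 were well above background on all 15 arrays. In the lectin pathway Mbl1, Mbl2 and Colec10 were well above background on 0 arrays, as were C8a and C8b of the terminal pathway. Limma called 0 of the 17 in each comparison. Deficient tumours were higher than adequate tumours for 8 of 17 and lower for 9 (median -0.02), supplemented higher than adequate for 6 and lower for 11 (median -0.17), and supplemented higher than deficient for 6 and lower for 11 (median -0.12). C4a, the partner of C2 in the C3-splitting enzyme, averaged 1.87 ± 0.68 in deficient and 0.86 ± 0.86 in adequate tumours, a difference of 1.01 (adjusted p = 0.987 in limma, unadjusted 0.0406), and a near-identical copy makes its probe uncertain. The membrane regulator Cd46 averaged less in supplemented than in deficient tumours, with a log2 difference of -0.63 that did not pass (limma, adjusted p = 0.707, unadjusted 0.0448). Cfi, the protease that inactivates C3 fragments, averaged 3.57 ± 1.38 in deficient, 3.59 ± 1.02 in adequate and 4.51 ± 0.50 in supplemented tumours. Fcnb, a ficolin, differed by -1.30 between deficient and adequate tumours (adjusted p = 0.987), with 6 arrays well above background. The remaining 13 genes had unadjusted p above 0.1 in all 3 comparisons.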

How the data were processed

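RNA of 15 tumours was measured on 1-colour (Cy3) Agilent rat arrays. Per the file headers, the deposited scanner files hold spot intensity, background-subtracted in Agilent Feature Extraction 11.5.1.1 (15.5 in the submitters' processing notes). The authors also deposited log2 values for 30002 probes, made by steps not given in the sources used here, which served as an alternative. Diets follow the sample titles and sources, and the group one label calls the negative control was read as adequate. One free-text field gives mammary gland at day 21, but the characteristics, which give tumours at 180 days, were followed.

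From each log2 processed signal the array's 75th percentile was subtracted, outlier spots were dropped and repeat spots averaged. A probe was tested if at least 5 of 15 arrays had it well above background (21014 probes, 39 missing values). Genes were named by accession through RefSeq of GRCr8, which named 17502 probes (42.7%). Limma 3.58.1 in R 4.3.3 fitted the 3 diets in one model, with 12 residual degrees of freedom and Benjamini-Hochberg adjustment over all tested probes. A named gene is a member, 1 of up to 8 other complement genes with the smallest p, or 1 of the genes most like C3, C1qa, C1s or Cfd. Marker genes named singly were chosen after their values were seen. The members and lists were chosen with earlier results of these data known.

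In data simulated for deficient against adequate tumours (10 sets of 21014 probes), limma found 47.3% of 2-fold and 92.8% of 4-fold changes, with 2.8 false calls per set. The 75th percentile ran from 50.7 to 177, 0 spots were saturated, and precision is limited by how many arrays there are. The alternatives were normexp (offset 50) on median signals, because the files hold no mean signal, the deposited values, quantile normalization, other filters, slide, scan day, replicate number or brightness in the model, array weights, and fewer arrays. The analyses without the 2 arrays of highest C3, without deficient replicate 3 (interferon list included) and within the 11 lower tumours were added after the data were seen, as was the level over all tested marker genes.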

Additional observations from a re-analysis of the deposited data

Results flagged for a closer look

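C3 in deficient replicate 3, at 6.40, stood apart from the other deficient tumours, of which the next was at 1.61. The gap made up 0.745 of the range of that diet. It was listed because that share passed an outlier cut-off of 0.71, applied to each gene in each diet. The wide range of C3 chose the set of genes, so passing the cut-off is a description and not evidence. Without this tumour the log2 difference of C3 between deficient and adequate tumours was -1.24, against -0.14 with it, and limma did not call it in either case.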

How the results depend on the processing

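Limma called 0 of the 9 complement genes in any alternative setting that gave a test, the lowest adjusted p being 0.330. Over all probes, 1 unnamed probe was called with array weights between supplemented and deficient tumours and also in the test over the 3 diets (adjusted p = 0.0194 and 0.0242), and leaving out single arrays gave 0 to 1 calls between supplemented and deficient tumours. That 1 call, without supplemented replicate 1, was Capns2, named here after its value was seen. Of the log2 differences, 681 kept their sign and 75 did not, and the cause was not tested. The shares of changes found in the simulated data describe probes at large with 5 tumours a diet. They set no bound for C3 and Cfd, whose levels spread widely between tumours. Between deficient and adequate tumours the limma interval was -2.42 to 2.14 for C3 and -0.96 to 2.43 for Cfd. Large changes in these genes could therefore be missed. Without a filter on detection, the median over all probes was 0.11 for deficient minus adequate and -0.14 for supplemented minus deficient, and under the other settings it stayed within 0.1 of 0.

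Between deficient and adequate tumours, normexp gave -0.10 for C1r, array weights -0.14 for C1r and -0.076 for C2, the deposited values 0.054 for C1qa, and leaving out the 3 dimmest arrays 0.34 for C3. Without the 2 arrays of highest C3 it was -0.20 for C1r and -0.089 for C2. Between supplemented and adequate tumours, normexp gave -0.17 for C3, -0.38 for Cfb, -0.23 for Cfd and -0.56 for Serping1, and the deposited values 0.11 for C1qa and -0.010 for C1s. C1qa was 0.078 with slide as a fixed block, 0.054 with scan day, 0.10 with array weights, 0.0038 without the 3 dimmest arrays and 0.25 without the 2 of highest C3, which also gave 0.087 for C1qb. Cfd was -0.072 with scan day. Between supplemented and deficient tumours, C1qb, at -0.0017 in the reported fit, was 0.10 with the deposited values, 0.016 with quantile normalization, 0.055 with slide as a fixed and 0.000308 as a random block, 0.095 with scan day, 0.18 with array weights, 0.062 with brightness, 0.014 without the 3 dimmest arrays and 0.15 without the 2 of highest C3. C1qa was -0.39 with normexp, C3 -0.077 without the 3 dimmest arrays and Cfb 0.062 without the 2 of highest C3.

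Leaving out single arrays gave these ranges where the sign turned. For deficient minus adequate they were -1.24 to 0.44 for C3, -0.45 to 0.095 for C1qa, -0.31 to 0.088 for C1qb, -0.24 to 0.22 for C1r, -0.11 to 0.21 for C2 and -0.018 to 1.26 for Cfd. For supplemented minus adequate they were -0.21 to 0.81 for C3, -0.22 to 0.25 for C1qa, -0.36 to 0.087 for C1qb, -0.23 to 0.32 for C1s, -0.56 to 0.39 for Cfd and -0.24 to 0.24 for Serping1. For supplemented minus deficient they were -0.13 to 1.47 for C3, -0.029 to 0.43 for C1qa, -0.20 to 0.15 for C1qb, -0.48 to 0.062 for Cfb and -1.30 to 0.038 for Cfd. The labels do not say whether replicate numbers pair the tumours, and the reported fit used no pairing. Same-numbered tumours correlated at -0.28 to 0.22 in their deviations, and 6 of 15 pairs exceeded 0.1. Their mean was -0.00035, against 0.0011 for pairs with different numbers. These values cannot settle whether the tumours were paired, and some pairs also share a slide. With the replicate number as a block the counts of called probes were 0 in every comparison, as without it, and the difference of C3 between deficient and adequate tumours was -0.14.

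Of the correlations, that of C3 with Cfb was -0.23 without the 2 tumours farthest from the median and -0.21 without deficient replicate 3, and that of C3 with Cfd was -0.25 in the 11 tumours of lower C3. With normexp the correlation of C1s with C1r was 0.494 (permutation p = 0.0712) and that of C3 with Serping1 0.533 (permutation p = 0.0437), and with quantile normalization that of C2 with Cfb was 0.514 (permutation p = 0.0524). The correlations of C3 with C1qa and C1qb stayed positive under every setting run.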

Other observations

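Several of the genes lie side by side in assembly GRCr8. C1qa, C1qc and C1qb follow each other on chromosome 5, C1r and C1s are neighbours on chromosome 4, and C2 and Cfb are neighbours on chromosome 20. The neighbours C1qa and C1qb correlated at 0.907 over the 15 tumours, C1r and C1s at 0.757 and C2 and Cfb at 0.554 (0.243 without the 2 tumours farthest in C2). C1r and C2, on different chromosomes, correlated at 0.810. The 2 probes of C1qc, which encodes the C chain of C1q, had r of 0.856 and 0.885 with C1qa, 0.833 and 0.861 with C1qb, and 0.812 and 0.840 with C3.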
